A study of Arabidopsis thaliana with 2 samples.

Results

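The chloroplast genome of Arabidopsis thaliana encodes, beside its photosynthesis genes, the machinery that expresses them and a few genes of general upkeep. The genes described here are the 40 chloroplast-encoded identifiers (IDs) of that kind among 31280 genes in a deposited table of ribosome-bound RNA: the rpo, rps, rpl, matK, accD, clpP, cemA and ycf genes, with both copies of the genes in the inverted repeat. They were chosen by ID and gene family, with no use of the measured levels. Immature flower bud clusters of the accession Col-0 were profiled in 2 libraries, 1 named ssRNA-seq and 1 of ribosome-bound RNA (ribo-seq), without replicates. No genotype, treatment or time was varied. For ribo-seq, ribosomes were pelleted in the presence of chloramphenicol and cycloheximide, which stop plastid and cytosolic ribosomes. They were then spread over a gradient of 15 to 60% sucrose, and the RNA of pooled monosomes and polysomes was depleted of rRNA and fragmented, so that whole bound RNAs and not ribosome footprints were sampled. The label of the ssRNA-seq library describes RNase ONE as a nuclease of double-stranded RNA, whereas its known substrate is single-stranded, and the library is called here by its name alone.

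Plastids keep a bacterial type of gene expression. Their own RNA polymerase has a core of alpha, beta, beta′ and beta″ subunits encoded by rpoA, rpoB, rpoC1 and rpoC2, while its sigma factors and most associated proteins come from the nucleus. The plastid ribosome likewise joins chloroplast-encoded rps (small subunit) and rpl (large subunit) proteins with nuclear-encoded ones. Chloroplast genes lie in clusters that are transcribed together and cut into smaller RNAs, and in some of them a purine-rich stretch before the start codon pairs with the small-subunit rRNA, as in bacteria.

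Levels are the deposited RPKM, that is weighted clones per kb of listed length, scaled to the 9574408 mapped clones of the library, where a clone is a sequenced fragment and the weights are the authors'. With 1 library there is no replicate error, and no test was possible. Ranges in brackets are 95% exact Poisson intervals on the weighted clones, which are approximate for weighted values and cover counting error only. In whole buds, fewer cells with plastids and less plastid RNA per cell cannot be told apart.

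The table gives no gene names for these IDs. Of the 40, 36 were named by a listed length equal to the spliced coding length of a gene of the same families in the RefSeq annotation (TAIR10.1), and 2 more, matK and ycf3, by a length check. The listed ycf3 of 381 nt equals 2 of its 3 exons, 153 and 228 nt, out of 507 nt. The listed matK of 1581 nt exceeds the annotated 1515 nt by 66 nt, and the 66 nt before the annotated start hold an in-frame ATG at their first codon and 0 stop codons. The last pair, ATCG00065 and ATCG00760 of 114 nt each, fits both rpl36 and the first exon of rps12 and is given by ID. Of the markers checked against the tissue label, the 6 flower markers lay between 0.852 RPKM (AG) and 15.1 RPKM (EXL4), and the root and seed markers between 0 (PHT1;1, OLEO1) and 0.315 RPKM (IRT1).

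The sequences before the start codons of 11 of the genes and of 2 photosynthesis genes are shown because they are where a plastid ribosome would first meet the RNAs whose levels follow. They were read 5′ to 3′ from the RefSeq chloroplast genome (TAIR10.1, chrC) as 20 nt before the start and the start codon itself. Capitals mark the start codon and any AGGA, GGAG or GAGG on the coding strand, overlaps included.
rps14, chrC:37238-37260, minus strand: ataacAGGAactgaagcattATG
clpP, chrC:71880-71902, minus strand: ttctctttttttttcatttcATG
ycf4, chrC:59752-59774, plus strand: tataactggatctaatatatATG
rpl2, chrC:85841-85863, minus strand: aaatcaaaatacttaatagcATG
rpoA, chrC:78888-78910, minus strand: tctgatcaaataaaattactATG
rpoB, chrC:26327-26349, minus strand: aaatgggaaattcaaaaaagATG
rpoC1, chrC:23082-23104, minus strand: tgaatcacaaaatttcttatATG
rpoC2, chrC:20066-20088, minus strand: agcagaatatGGAGGtacttATG
rps16, chrC:6186-6208, minus strand: acacaaactaGAGGAatgttATG
rps19, chrC:84281-84303, minus strand: aaaatAGGAGttaattaactGTG
ycf2, chrC:86454-86476, plus strand: atgcaatttAGGAGGAatcaATG
psaB, chrC:39577-39599, minus strand: AGGAGGAtttgaaaggcattATG
rbcL, chrC:54938-54960, plus strand: tgacttgtagGGAGGgacttATG
Of the 33 different start windows of the housekeeping genes, 15 held at least 1 of the 3 motifs (45.5%), against 17 of 33 windows of photosynthesis genes (51.5%). Among NDH genes 5 of 11 windows held one (45.5%). Over all 78 coding start windows of the chloroplast 37 held one (47.4%), so the housekeeping share was near that background. All windows of 20 nt on both strands of the chloroplast genome, at any position, held one in 12.0% of cases. The motif was present before rps14, the highest gene, and before rps16, the one listed at 0, and was not found in these windows before clpP, ycf4 and rpl2, which were among the highest. The median level was 5.27 RPKM for the 14 named genes with a motif and 8.29 RPKM for the 17 without. The start codon was ATG in 31 windows and GTG in 2, those of rps19 and ycf1.

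RNA of almost all of the genes was found in the ribosome-bound RNA, at a median level far below that of the photosynthesis genes of the same genome. The ranges overlapped, and 10 of the 40 lay below the lowest photosynthesis gene. Whole bound RNAs were sampled and chloroplast genes can share an RNA, so a level does not show ribosomes on that gene itself. Of the 40, 39 were listed above 0 and above the median of the nuclear genes above 0 (0.207 RPKM), against a background of 43.0% of all 31280 genes above that median and 85.6% above 0. The median of the 40 was 5.77 RPKM (quartiles 3.59 and 9.96), which is 27.9 times the nuclear median. Among nuclear genes with at least 10 weighted clones the median is higher, and the fold was 6.16 over genes of that depth. The 40 held 2184 weighted clones, 0.616% of those of the table (0.590 to 0.642%, exact binomial; 0.341% without weights) and 4.24% of those of the 88 chloroplast IDs (4.07 to 4.42%). The 33 photosynthesis and ATP synthase genes had a median of 51.5 RPKM and took 94.3% of the chloroplast's weighted clones, with rbcL, the large subunit of Rubisco, highest at 1678 RPKM and psbM lowest at 3.65 RPKM. The 12 genes of the NDH complex, which carries electrons around photosystem I, had a median of 6.21 RPKM, close to that of the housekeeping genes, with ATCG01050 highest at 14.1 RPKM and ndhF lowest at 1.83 RPKM. The housekeeping median was 0.93 times the NDH median over all genes and 1.06 times over genes with at least 10 weighted clones, so neither was above the other in both.

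**Figure D1:**
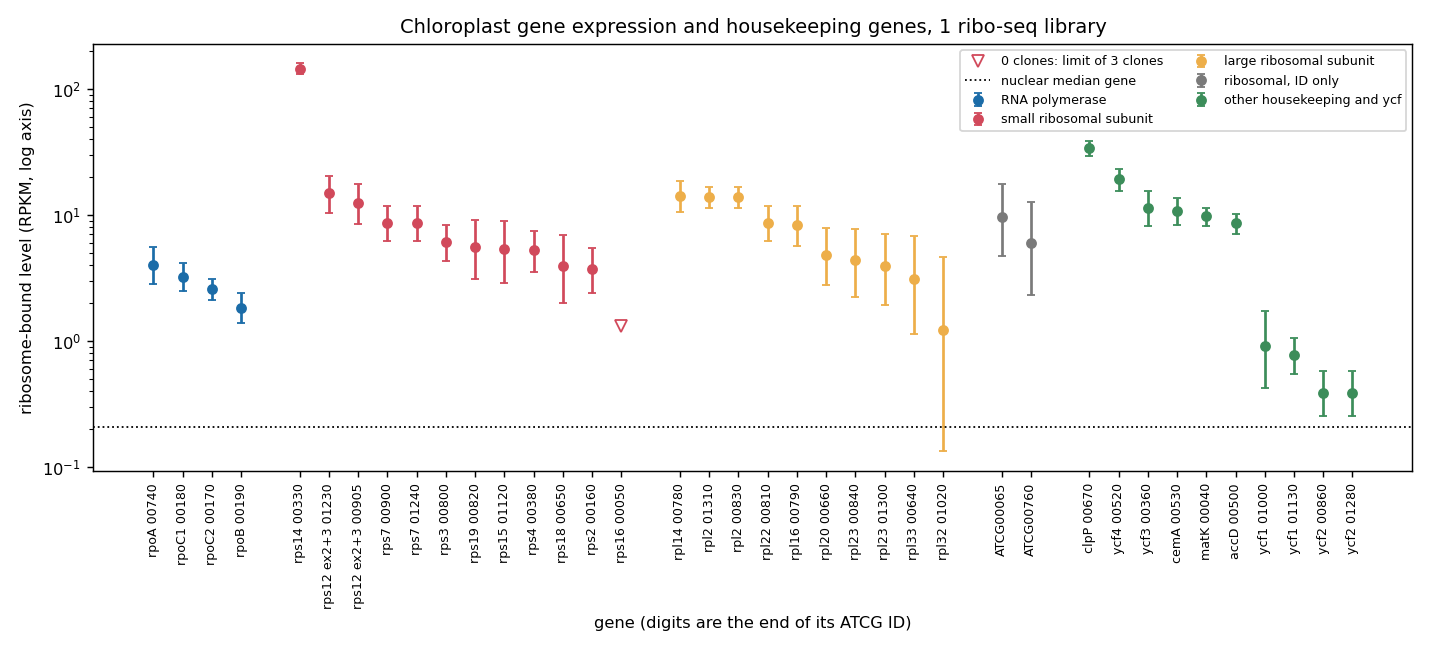
Ribosome-bound level of 38 of the 40 genes in the ribo-seq library (RPKM, log axis), grouped by role and ordered within it. Bars are 95% Poisson intervals, the open triangle is the limit that 0 clones of rps16 allow, and the dotted line is the nuclear median gene at 0.207 RPKM. rps14 stands at 145 RPKM and 33 of the 40 genes lie between 1 and 20 RPKM.

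A single gene stood apart from the others. rps14, which encodes protein S14 of the small subunit (ATCG00330, chrC:36938-37240, minus strand, 1 exon), had 532 clones, 420.5 weighted clones and 145 RPKM (131 to 159). That was 4.29 times the second gene, 25.1 times the median of the 40 and 2.81 times the median of the photosynthesis genes, of which 8 were higher. Among all nuclear genes, 7 were higher. It alone held 19.3% of the weighted clones of the 40 genes, and the 3 genes with most weighted clones held 34.7%. Below it the levels formed a continuous order: 37 of the 39 neighbouring pairs in the order of levels had overlapping intervals, and the exceptions were the steps below rps14 and below clpP. In all, 2 genes lay above 20 RPKM, 33 between 1 and 20, 4 between 0 and 1, and 1 at 0. Of the 780 pairs of the 40 genes, 435 had intervals apart.

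The RNA polymerase genes were the lowest of the role groups with a median of 2.89 RPKM (n = 4). rpoA (alpha) had 4.02 RPKM (2.85 to 5.51) from 131 clones, and rpoC1 (beta′) had 3.21 RPKM (2.47 to 4.11) from 86 clones. rpoC2 (beta″) had 2.57 RPKM (2.09 to 3.12) from 143 clones, and rpoB (beta) had 1.83 RPKM (1.38 to 2.37) from 75 clones. rpoB lay below rpoA and below rpoC1 with intervals apart, and the other 4 of the 6 pairs had overlapping intervals. The place of rpoA rests on the weights: its 131 clones counted as 38.1, a mean weight of 0.291, although 92.9% of its 20-mers occur once in the genome. Without weights rpoA was at 13.8 RPKM, above rpoC1 (4.40), rpoC2 (3.62) and rpoB (2.43), and the reason for its weights was not tested.

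The nuclear-encoded partners of the polymerase had a lower median per kb, although the highest was listed above the rpo genes, in part with overlapping intervals. The median of the 4 rpo genes was 5.48 times that of 21 nuclear genes of plastid transcription (0.527 RPKM), 20 of which lay above the nuclear median gene. Highest among these were PTAC10 at 4.30 RPKM (mean weight 0.365), PTAC7 at 3.44 RPKM and FLN1 at 1.44 RPKM, all parts of or associated with the transcribing polymerase complex. PTAC10 (3.46 to 5.27) was listed above each of the 4 rpo genes, but its interval overlapped those of rpoA and rpoC1. PTAC7 (2.13 to 5.26) was listed above all but rpoA, and its interval overlapped those of all 4. The order of PTAC10 and rpoA rests on low mean weights in both (0.365 and 0.291). FLN2 was lowest at 0.178 RPKM. Listed lengths of chloroplast genes are coding lengths, whereas nuclear lengths are those of mRNAs, which bears on every level compared between the genomes.

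The small-subunit genes had a median of 5.84 RPKM (n = 14 IDs), and besides rps14 none exceeded 14.8 RPKM. Exons 2 and 3 of rps12 are joined in trans to an exon transcribed elsewhere, lie in the inverted repeat and had 14.8 RPKM (10.4 to 20.4) for ATCG01230 and 12.4 RPKM (8.44 to 17.7) for ATCG00905. Both IDs of rps7 were listed at 8.67 RPKM (6.16 to 11.9). These 4 IDs of repeat genes followed rps14 directly within the subunit. Then came, among others, rps3 at 6.09, rps19 at 5.54, rps15 at 5.32 and rps4 at 5.22 RPKM, whose intervals all overlapped. rps18 had 3.93 RPKM (1.99 to 6.94, 13 clones), and rps2 had 3.71 RPKM (2.41 to 5.47) with 54.5% of its 20-mers also in the nuclear genome. rps16 was listed with 0 clones over 240 nt, which allows a level of up to 1.31 RPKM (3 clones). That limit lies below the level of each other small-subunit gene, so its level was low in this library but not shown to be absent.

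The large-subunit genes had a median of 6.55 RPKM (n = 10 IDs) and no gene apart from the rest. rpl14 had 14.1 RPKM (10.5 to 18.6), and the copies of rpl2, which encodes a protein at the peptidyl transferase centre, had 13.9 RPKM each (11.4 to 16.8 and 11.4 to 16.7). rpl22 had 8.61 and rpl16 8.29 RPKM. rpl20 had 4.82, the copies of rpl23 had 4.36 (ATCG00840) and 3.92 (ATCG01300), rpl33 had 3.09 and rpl32 had 1.23 RPKM. The last rested on 4 clones over 159 nt and its interval ran from 0.133 to 4.61 RPKM. Among the 45 pairs in this group 17 had intervals apart, against 39 of 91 among the small-subunit IDs. The unnamed pair ATCG00065 and ATCG00760 had 9.62 RPKM (4.71 to 17.4) from 12 clones and 5.96 RPKM (2.29 to 12.6) from 7 clones, inside the range of both subunits.

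Chloroplast-encoded ribosomal proteins were higher per kb than the nuclear-encoded ones of the same ribosome. The 26 chloroplast IDs had a median of 6.02 RPKM, against 2.76 RPKM for 34 nuclear-encoded plastid ribosomal proteins, a fold of 2.18. The nuclear set was present throughout, with 34 of 34 above 0 and 33 above the nuclear median gene. Its highest were PRPS1 at 7.75 RPKM, PRPL4 at 7.32 RPKM and PRPL13 at 6.85 RPKM, and its lowest was PRPL12B at 0.175 RPKM. Of the 26 chloroplast IDs, 11 were listed above PRPS1 (6.41 to 9.30), the highest of the nuclear ones, with repeat genes counted in both copies. Only rps14, rpl14, both rpl2 IDs and the rps12 ID ATCG01230 had intervals apart from that of PRPS1.

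The remaining 10 IDs, of proteins that serve neither transcription nor the ribosome itself, ran from 0.388 to 33.8 RPKM, with quartiles of 0.801 and 11.2. clpP, a proteolytic subunit of the Clp protease (ATCG00670, chrC:69910-71882, minus strand, 3 exons), had 232 clones and 33.8 RPKM (29.1 to 38.9). ycf4 and ycf3, which encode assembly factors of photosystem I, had 19.1 RPKM (15.6 to 23.2) and 11.3 RPKM (8.12 to 15.3). cemA, of the inner envelope membrane, had 10.7 RPKM (8.36 to 13.5). These genes and the next 2 lay above the median of the 40. matK, a maturase for group II introns, had 9.71 RPKM (8.20 to 11.4) from 190 clones. accD, a subunit of the acetyl-CoA carboxylase of fatty acid synthesis, had 8.55 RPKM (7.09 to 10.2) from 154 clones. At the other end stood the very long genes of the envelope translocation machinery. ycf1 had 0.914 RPKM (0.418 to 1.73) for ATCG01000, a copy of 1032 nt cut short by the edge of the repeat. The full gene of 5361 nt, ATCG01130, had 0.764 RPKM (0.543 to 1.04). Both IDs of ycf2, at 6885 nt the longest of the genes, had 0.388 RPKM (0.252 to 0.570). The place of ATCG01000 rests on the weights: its 33 clones counted as 9.03, a mean weight of 0.274. Most short stretches of its sequence (63.6%) also occur in the nuclear genome. Without weights ATCG01000 was at 3.34 RPKM, above rpoB (2.43) and rpl32 (2.63). ATCG01130 (1.73) and ycf2 (0.941) stayed below both of these without weights. ycf2 was 1.87 times the nuclear median gene, and clpP was 163 times.

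clpP and accD also exceeded their nuclear-encoded partners. clpP was 29.6 times the median of 13 nuclear genes of the plastid Clp protease (1.14 RPKM). It was 5.23 times the highest, CLPC1 at 6.45 RPKM, a chaperone of the complex. CLPR2 followed at 2.0 and CLPT1 at 1.99 RPKM, CLPT2 was lowest at 0.203 RPKM, and 12 of the 13 were above the nuclear median gene. accD was 5.89 times the median of the 4 nuclear subunits of the carboxylase (1.45 RPKM). Those were CAC2, the biotin carboxylase, at 3.64 RPKM, CAC3 at 1.84 RPKM, BCCP2 at 1.06 RPKM and BCCP1 at 0.682 RPKM, all 4 above the nuclear median gene.

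**Figure D2:**
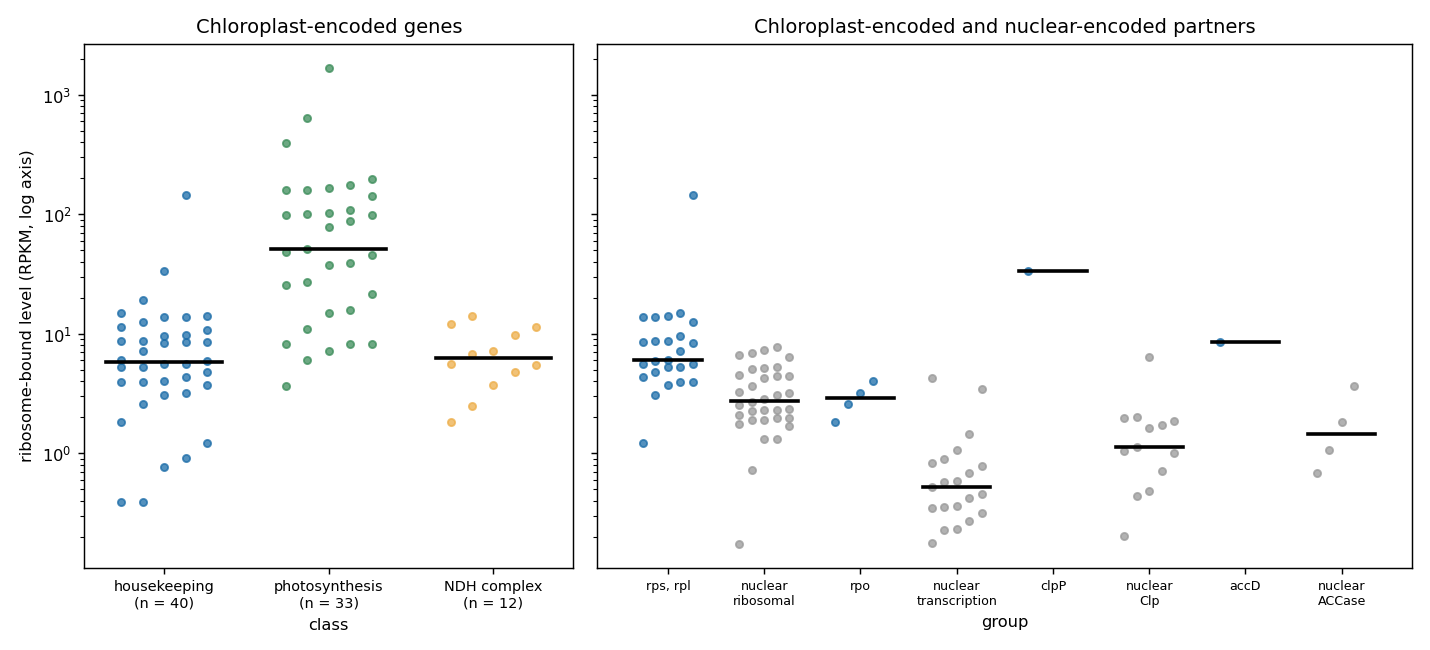
Ribosome-bound levels (RPKM, log axis) of single genes, with bars at the medians. On the left, the 40 housekeeping genes (median 5.77), photosynthesis genes (51.5) and NDH genes (6.21) of the chloroplast; on the right, in blue, chloroplast-encoded ribosomal proteins, rpo genes, clpP and accD, each beside its nuclear-encoded partners in grey. rps16, at 0, is not drawn but enters the medians.

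Long genes were low and short genes varied. The 6 IDs of at least 2000 nt (rpoB, rpoC1, rpoC2, the full ycf1 and both of ycf2) had a median of 1.30 RPKM and none above 3.21, against a median of 6.59 RPKM for the 22 IDs under 500 nt. Over the 39 IDs above 0 the Spearman correlation of length with RPKM was -0.29, a description of 1 library in which short genes rest on few clones. Genes with an intron had a median of 12.4 RPKM (n = 9 IDs) and those without one 5.22 RPKM (n = 29). The IDs with an intron include rps16 at 0, both rpl2 and both rps12 IDs.

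Neighbouring genes on the same strand were set side by side, since chloroplast genes are often transcribed together. rps14 lies 134 nt from psaB, a core subunit of photosystem I, and its level of 145 RPKM (131 to 159) was 1.45 times that of psaB at 100 RPKM (95.9 to 104), with intervals apart. Both were far above the median of the housekeeping genes, and psaA, beyond psaB, had 98.5 RPKM. Of the other 4 housekeeping genes within 500 nt of a photosynthesis gene, rpl33, rps2 and cemA lay below that neighbour. By length alone, the neighbour of ycf4, psaI, could not be told from another ID. In the order of IDs, ATCG00510 falls between accD (ATCG00500) and ycf4 (ATCG00520), which is where psaI lies on the genome. ycf4 at 19.1 RPKM (15.6 to 23.2) lay above both IDs, ATCG00510 at 7.18 RPKM (3.07 to 14.2) and ATCG00600 at 8.28 RPKM (3.79 to 15.7). The interval of ycf4 overlapped that of ATCG00600 only. rpl33 had 3.09 RPKM beside psaJ at 25.7 RPKM. rps2 had 3.71 RPKM beside atpI at 15.0 RPKM. cemA had 10.7 RPKM between ycf4 at 19.1 and petA at 21.7 RPKM. The 5 such genes (cemA, rpl33, rps14, rps2 and ycf4) had a median of 10.7 RPKM, against 5.54 RPKM for the 33 other named IDs, with ranges of 3.09 to 145 and 0 to 33.8 RPKM that overlap.

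**Figure D3:**
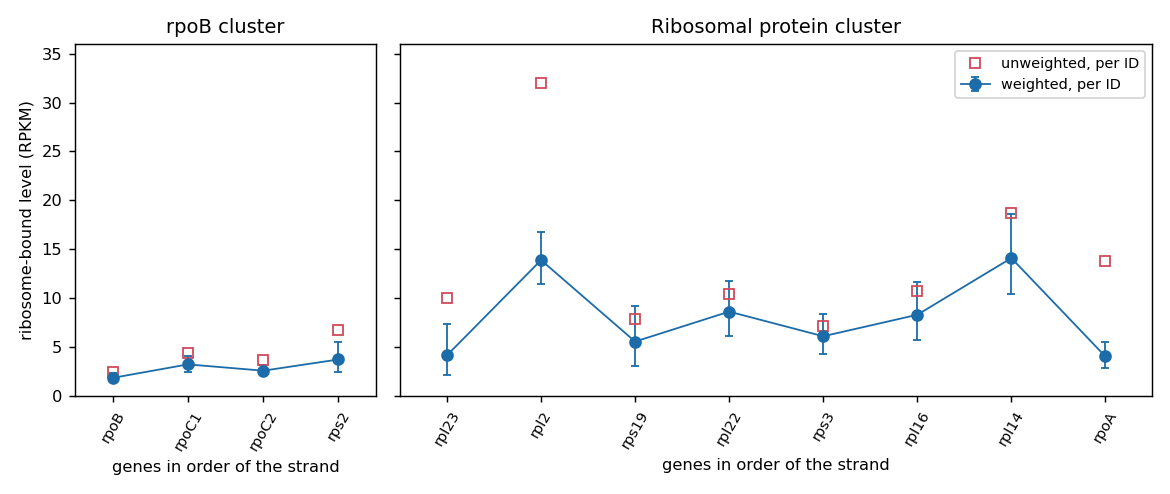
Levels along the rpoB cluster (left) and for 8 genes of the ribosomal protein cluster (right), in order of the strand. Blue points are RPKM per ID with the 95% Poisson interval (for rpl23 and rpl2 the mean over both copies), and red squares are the same without weights. Levels run from 1.83 to 3.71 RPKM on the left and from 4.02 to 14.1 RPKM on the right.

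Within clusters levels were uneven. From rpoB through rpoC1 and rpoC2 to rps2 they differed by up to 2.03 times, lowest in rpoB, the first gene. Over the 8 genes shown of the cluster from rpl23 to rpoA the range was 3.51 times, with rpl14 highest and rpoA lowest and a median of 7.19 RPKM per ID. Both ends turn with the reckoning: without weights rpl2 was highest at 32.0 and rps3 lowest at 7.15 RPKM, with rpoA at 13.8, and summed over both copies rpl2 was highest at 27.8 RPKM. rpl2 was 3.35 times rpl23, although 18 nt separate them, and rpl14 was 2.54 times rps19. rps3 and rpl22, which overlap by 16 nt, had 6.09 and 8.61 RPKM with overlapping intervals. Levels neither fell nor climbed steadily from the first gene to the last. clpP, 185 nt from the first exon of rps12, was 7.01 times rpl20.

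**Figure D4:**
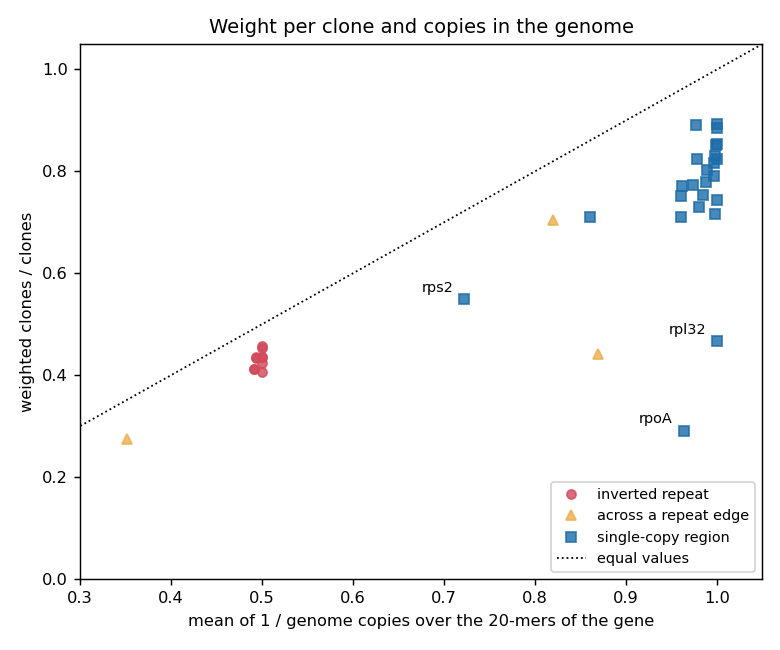
Mean weight per clone (weighted clones divided by clones) against the mean of 1 over the number of genome copies of each gene's 20-mers, for the named genes with clones. Genes of the inverted repeat lie between 0.406 and 0.456, and rpoA (0.291) lies below all other single-copy genes, next to rpl32 (0.467, from 4 clones); the dotted line marks equal values.

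Genes of the inverted repeat carry their level in 2 places. The repeat was found base by base as 26264 nt at chrC:84171-110434 and chrC:128215-154478. The IDs of a pair had equal clones for rps7 (89 each) and ycf2 (62 each) and near-equal clones for rpl2 (252 and 253), while rpl23 had 29 and 25 and rps12 exons 2 and 3 had 68 and 80. The 2 IDs of ycf1, which differ in length, had 33 and 89 clones. The 10 IDs of repeat copies of equal length had a median weight of 0.434 per clone (0.406 to 0.456), against 0.777 (0.291 to 0.893) for 24 single-copy IDs. Summed over both copies, rpl2 came to 27.8 RPKM, rps12 exons 2 and 3 to 27.2, rps7 to 17.3, rpl23 to 8.28 and ycf2 to 0.776 RPKM. In that reckoning rpl2 and rps12 stood above ycf4, next after rps14 and clpP.

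The ssRNA-seq library was deposited as 33187 hotspots, scored intervals on a given strand, of which 143 lie on the chloroplast (51 to 210 nt long). Whether the RNA in them is single-stranded was not tested. Their register was checked in the inverted repeat: with both ends counted from 1, 34 of its 50 hotspots had an exact mirror on the opposite strand of the other copy, and 0 under either of the other ways of counting. By position, 16 of 40 annotated loci of the housekeeping genes carried a hotspot on the same strand in their coding exons, against 14 of 33 photosynthesis and 4 of 12 NDH loci. Over all 86 chloroplast coding loci 39.5% carried one, so the share of 40.0% among the housekeeping genes was near the background. The hotspots covered 58.2 nt per kb of coding sequence in the housekeeping genes, 110 nt per kb in photosynthesis genes and 18.6 nt per kb in NDH genes, with 64.9 nt per kb over all coding loci and 34.5 nt per kb over both strands of the genome. No depth is given for this library, so these carry no interval.

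**Figure D5:**
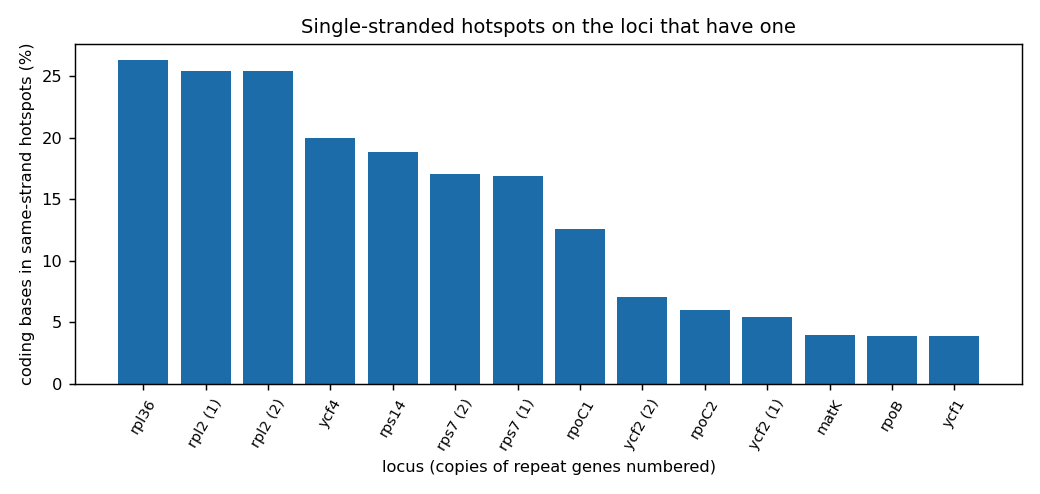
Share of coding bases inside same-strand hotspots (percent) at 14 of the 16 loci of housekeeping genes that carry one. Shares run from 26.3% at rpl36 to 3.88% at the full ycf1, and both copies of rpl2 stand at 25.5%.

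Hotspots fell on genes of every role. Among ribosomal proteins, both copies of rpl2 carried 210 nt (25.5% of the coding bases), rpl36 30 nt (26.3%), rps14 57 nt (18.8%), and the copies of rps7 79 and 80 nt. Polymerase genes other than rpoA carried them, with 257 nt on rpoC1 in 4 hotspots, 248 nt on rpoC2 in 3 and 126 nt on rpoB in 3. ycf4 carried 111 nt, matK 60 nt, the full ycf1 208 nt and the copies of ycf2 374 and 487 nt. Coding exons of clpP, accD, cemA, ycf3, rpl14 and rps16 carried none, so the second highest gene and the one at 0 were alike in this. The loci with a hotspot were longer, with a median of 825 coding nt (n = 16) against 361.5 nt for those without (n = 24), and their median level was 7.22 against 5.32 RPKM. Introns carried further same-strand hotspots: 235 nt in rpl16, 124 and 115 nt in the copies of rpl2, 80 nt in clpP, 68 nt in rps16 and 55 nt in ycf3. The intron of rps16 thus had signal in the ssRNA-seq library, while its coding sequence had 0 clones in ribo-seq. On the opposite strand 7 loci carried 15 hotspots of 970 nt in all, among them 196 nt against rpoC2 and 146 nt against rpoC1.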

How the data were processed

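Members and lists were chosen with earlier results of these data known. Per the file headers, the deposited ribo-seq table gives for each transcript a count of clones, an estimated count in which clones are weighted, RPM and RPKM, all made by the authors. From the values, the deposited RPKM equals weighted clones per kb, scaled to the mapped clones. No source used here gives the formula of the weights. Cutadapt 0.9.5, Bowtie 0.12.7 and build TAIR9 are named in the submitters' processing notes. The weighted clones of all genes came to 3.71% of the mapped clones. The deposited hotspots are intervals with a strand and a score made by the authors, whose caller no source used here gives. They overlap coding exons here by at least 1 base.

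Each of the 31280 genes was represented by its isoform of highest RPKM. Names, exons and sequences came from RefSeq TAIR10.1. Of the 40 members, 38 were named in the text with values and 2 are not reported here singly, though they enter the counts and medians; also named were the 3 highest and the 1 lowest of each nuclear list and the highest and lowest photosynthesis and NDH genes; neighbours were named for position. Intervals were computed with scipy 1.17.1 under Python 3.11.15. They were tried on simulated whole Poisson counts with means of at least 10, which does not test them for weighted clones or lower counts. Alternatives tried were unweighted clones, 1 or summed repeat copies, a minimum of 10 weighted clones, a pseudocount of 0.1 RPKM, genes at 0, the first listed isoform and, for hotspots, 25 bases, stronger scores or either strand.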

Additional observations from a re-analysis of the deposited data

Results flagged for a closer look

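Of the 3 chloroplast IDs outside the housekeeping, photosynthesis and NDH lists, 2 had more than the 3 weighted clones that a count of 0 allows. ATCG01040, whose listed length of 987 nt equals the coding length of ccsA in the annotation, had 2.84 RPKM from 26.8 weighted clones, above the limit of 0.317 RPKM. ATCG01270, of 234 nt and with no gene of that length in the annotation, had 1.41 RPKM from 3.17 weighted clones, just above its limit of 1.34 RPKM. Neither enters a comparison of the report. The other ID, ATCG00870, also of 234 nt, had 1.19 RPKM from 2.67 weighted clones and did not pass the limit.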

How the results depend on the processing

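Of the values recomputed, 59 stayed within the range set by counting error or by the spread over genes, 7 moved outside it and 1 changed direction. Over genes with at least 10 weighted clones, the median of the housekeeping genes was 6.16 times the nuclear median gene, against 27.9 times over genes above 0, and 1.06 times the NDH median, against 0.93. Without weights, their share of clones was 0.341%, against 0.616%, and the medians were 4.01 RPKM for RNA polymerase, 10.6 RPKM for large-subunit and 11.8 RPKM for other genes, against 2.89, 6.55 and 9.13 RPKM with weights. With 1 copy of each repeat gene the share was 0.553%. Without rps14, an alternative chosen after seeing the data like the summed copies, it was 0.497%. No paired analysis was possible because each assay has 1 library and no result comes from a test. Depth limits the short genes most: 35 of the 40 IDs had at least 10 weighted clones, and hotspots have no stated depth.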

Other observations

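Base composition of the housekeeping genes, which entered no comparison above, was lowest in the full ycf1 at 28.7% GC and had a median of 37.1% over the named IDs. Over the 37 named IDs above 0, GC content and RPKM had a Spearman correlation of 0.45, given as a description: the IDs share 1 library, and the repeat genes enter with both copies.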
